A study of Mus musculus with 6 samples.

Results

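The complement genes described here are 9 genes of the deposited table of 56691, chosen by symbol: the anaphylatoxin receptor genes C3ar1, C5ar1 and C5ar2, the C1q chain genes C1qa, C1qb and C1qc, and C3, Cfb and Cfp of the alternative pathway. All 9 symbols had 1 row each, and they were chosen with earlier results of these data known. RNA sequencing covered 3 libraries of cells grown for 24 h on MSA-DA hydrogels and 3 libraries of cells grown for 24 h on MSA-ZW hydrogels. The cells were a wild-type mouse macrophage line that the labels spell RAW246.7, and all 6 libraries came from cells pretreated with lipopolysaccharide (LPS), an endotoxin of Gram-negative bacteria that activates macrophages. No library of cells without LPS or off a gel is part of this comparison, and a cultured line need not behave as primary macrophages do. By its title the series concerns the fibrin that builds up on porous gels of differing protein uptake, so the comparison asks how expression on MSA-DA differed from that on MSA-ZW.

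Complement is a set of plasma and cell proteins that mark particles and dying cells for uptake. C1q, built from the products of C1qa, C1qb and C1qc, starts the classical route. C3 is the protein on which all routes meet, factor B (Cfb) supplies the protease of the alternative pathway convertase, and properdin (Cfp) stabilises that convertase. Cleavage of C3 and C5 releases the peptides C3a and C5a, which act on leukocytes through the receptors C3ar1 and C5ar1, while C5ar2 binds C5a without the usual G protein coupling. Macrophages make several of these proteins themselves and carry the receptors.

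Count totals lay between 14374912 and 18346615 on MSA-DA and between 16347934 and 18193026 on MSA-ZW. Of 8 macrophage markers, 7 exceeded 1 CPM (counts scaled to library size) in every library, and Mertk did not. The summed marker level was 3947 to 4010 CPM on MSA-DA, against 4642 to 4686 CPM on MSA-ZW. In the edgeR test described next to the first result, 4 of the 7 tested markers were lower on MSA-DA and 0 higher. Of all tested genes 6.5% were called lower, and of those with at least 50 CPM 11.7%. Most of the gap in the sum lay in Lyz2, at 1769 CPM on MSA-DA, against 2291 CPM on MSA-ZW, and in Csf1r, at 939 CPM on MSA-DA, against 1080 CPM on MSA-ZW (means, n = 3 per gel), and Fcgr1 and Spi1 were the other markers called lower. Cd68, Ptprc and Adgre1 did not pass, with means of 611, 301 and 25.8 CPM on MSA-DA, against 588, 288 and 25.1 CPM on MSA-ZW. The complement genes that fell moved in the same direction as this sum and as 4 of its genes, and the part of the markers in that was not tested. Markers of T cells, fibroblasts and hepatocytes summed to under 1 CPM in every library, with Cd3d, Cd3g, Alb, Apoa1 and Ttr at 0 counts throughout, and neutrophil markers to 1.33 to 1.78 CPM on MSA-DA, against 1.27 to 1.37 CPM on MSA-ZW, with S100a9 at 0. Endothelial markers summed to 0.634 to 0.821 CPM on MSA-DA, against 0.494 to 1.87 CPM on MSA-ZW. Ribosomal-RNA-like loci held 0.151% to 0.160% of counts on MSA-DA, against 0.265% to 0.560% on MSA-ZW, the highest share being that of MSA-ZW replicate 2. Mitochondrial genes held 3.095% to 3.122% of counts on MSA-DA, against 2.726% to 2.775% on MSA-ZW. Without these genes and the ribosomal-RNA-like loci the same 4 members were called as with all genes, and without MSA-ZW replicate 2 all of them but C5ar2. Leaving genes out does not alter the counts of the others, and a difference in RNA or library preparation was not tested. The labels do not say whether the 3 libraries per gel are separate cultures, and p-values therefore speak only of the spread among these libraries, which may be technical. In such bulk RNA, fewer cells expressing a gene and less RNA per cell cannot be told apart.

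The reference promoters of 3 genes that were lower on MSA-DA and of 1 C1q chain gene without a read are printed, so that expressed members whose level differed can be read beside one with none. They are RefSeq sequences of the GRCm38.p6 build, 250 bases before to 50 after the annotated start, 5′ to 3′ on the gene's strand. The intervals are chrX:20931506-20931805 for Cfp, chr6:122856108-122856407 for C3ar1, chr7:16259289-16259588 for C5ar1 and chr4:136892865-136893164 for C1qc, all on the minus strand. Capitals mark matches to the motifs described after the sequences.
Cfp: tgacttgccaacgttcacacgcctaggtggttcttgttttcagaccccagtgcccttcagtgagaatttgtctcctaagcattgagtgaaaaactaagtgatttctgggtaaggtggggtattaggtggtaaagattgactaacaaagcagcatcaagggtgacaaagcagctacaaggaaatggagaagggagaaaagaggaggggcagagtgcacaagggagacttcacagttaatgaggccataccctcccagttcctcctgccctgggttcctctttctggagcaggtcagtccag
C3ar1: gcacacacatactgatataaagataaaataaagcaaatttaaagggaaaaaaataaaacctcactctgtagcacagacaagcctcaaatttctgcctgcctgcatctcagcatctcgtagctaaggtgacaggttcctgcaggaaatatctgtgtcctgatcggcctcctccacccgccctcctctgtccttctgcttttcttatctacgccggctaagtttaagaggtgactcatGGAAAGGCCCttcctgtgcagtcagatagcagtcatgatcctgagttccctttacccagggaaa
C5ar1: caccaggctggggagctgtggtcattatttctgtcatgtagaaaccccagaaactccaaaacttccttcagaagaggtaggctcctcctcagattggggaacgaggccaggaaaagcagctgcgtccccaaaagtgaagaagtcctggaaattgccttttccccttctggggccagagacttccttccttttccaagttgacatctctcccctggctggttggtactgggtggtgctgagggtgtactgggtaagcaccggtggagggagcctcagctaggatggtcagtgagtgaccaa
C1qc: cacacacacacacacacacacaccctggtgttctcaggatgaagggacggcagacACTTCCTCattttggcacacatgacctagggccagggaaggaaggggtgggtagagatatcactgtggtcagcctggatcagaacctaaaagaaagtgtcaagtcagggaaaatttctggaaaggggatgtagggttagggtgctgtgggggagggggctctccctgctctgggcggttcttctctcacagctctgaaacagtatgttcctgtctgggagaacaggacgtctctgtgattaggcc

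Of the 9 genes, 7 had promoters in the RefSeq table, C5ar2 with more than one. They were searched on both strands for an interferon-stimulated response element (GAAA, any 2 bases, GAAA), a STAT site (TTCNNNGAA), an NF-kB-like site (GGG, any 3 bases, TTCC) and a PU.1-like core (GAGGAAGT). The C3ar1 promoter held 1 NF-kB-like match, whose first printed base lies at -14 relative to the start, a motif present in 5.56% of 32851 promoters of this length. The C1qc promoter held 1 PU.1-like match, whose first printed base lies at -195 relative to the start, a motif present in 3.2% of those promoters. The element for interferon-stimulated genes was present in 3.44% of promoters and the STAT site in 8.3%, and neither was in these windows. The promoters of Cfp, C5ar1, C5ar2, C3 and C1qb held no match to these letters. A match of letters is a description and shows no binding.

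Transcripts of properdin and of the 3 anaphylatoxin receptors were less abundant in macrophages on MSA-DA than in those on MSA-ZW. Cfp was 1.22-fold lower, C3ar1 1.15-fold lower, C5ar1 1.13-fold lower and C5ar2 1.51-fold lower. C3 and Cfb did not pass the test, and the C1q chain genes had almost no reads. The edgeR quasi-likelihood test called 4 of the 6 tested members lower and 0 higher at an adjusted p below 0.05, where 13.4% of all 12467 tested genes were called, 6.5% lower and 6.92% higher. The share called depended on depth: 11.7% of tested genes with at least 50 CPM were called lower and 13.6% higher, and 2.21% of those under 10 CPM were called lower. The MSA-DA libraries lay below the MSA-ZW libraries without overlap in 5 of the 6 tested members, where 13.7% of all tested genes did so. The median log2 difference of the 6 tested members was -0.24, beside 0.00 over all tested genes. Because the members were chosen with earlier results of these data known, these shares describe them and do not test them as a set. The count of 4 fell to 2, Cfp and C3ar1, without MSA-DA replicate 1, without MSA-DA replicate 3 and without MSA-ZW replicate 3.

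**Figure D1:**
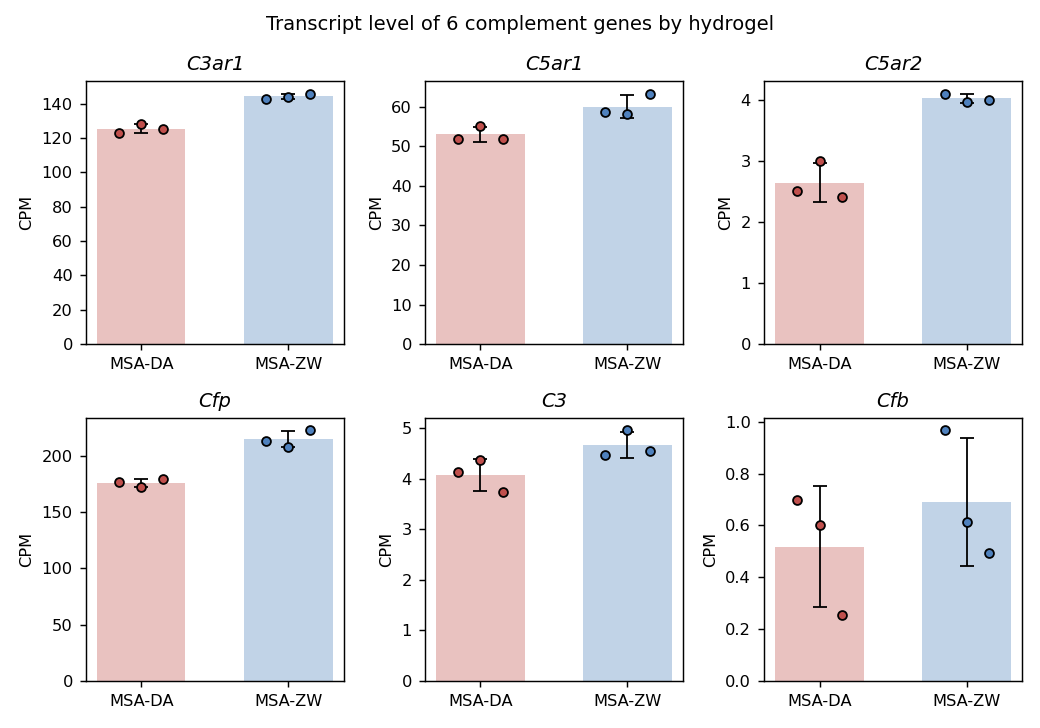
CPM of 6 complement genes in the 3 MSA-DA libraries (left) and the 3 MSA-ZW libraries (right) of each panel. Points are libraries, bars are means and error bars are SD. The MSA-DA libraries lie below the MSA-ZW libraries in every gene drawn but Cfb, whose libraries overlap.

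The complement 3a receptor gene C3ar1 (ENSMUSG00000040552, chromosome 6, 122824097 to 122833120, minus strand, GRCm39) had 123, 128 and 125 CPM in MSA-DA replicates 1, 2 and 3, against 143, 144 and 146 CPM in MSA-ZW replicates 1, 2 and 3. The groups did not overlap, and the gap between the gels was wider than the range of libraries within either gel. These levels rest on 1759 to 2338 counts per MSA-DA library and 2346 to 2658 per MSA-ZW library. The log2 difference was -0.20 (standard error 0.03, edgeR adjusted p = 5.07e-05), and C3ar1 was called in all 16 alternative fits.

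C5ar1, the gene of the main C5a receptor (ENSMUSG00000049130, chromosome 7, 15980668 to 15993465, minus strand, GRCm39), had 51.9, 55.1 and 51.9 CPM on MSA-DA, against 58.7, 58.1 and 63.3 CPM on MSA-ZW. The groups did not overlap, although the gap between MSA-DA replicate 2 and MSA-ZW replicate 2 was smaller than the range within each group. The log2 difference was -0.18 (standard error 0.05, edgeR adjusted p = 0.0127). It did not pass without MSA-DA replicate 1, without MSA-DA replicate 3 or without MSA-ZW replicate 3 (edgeR adjusted p of 0.0524, 0.0602 and 0.0821). Limma on log2(FPKM + 1) without a variance trend did not call it either (adjusted p = 0.0886), and in all it was called in 11 of the 16 alternative fits.

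C5ar2, the gene of the second C5a receptor (ENSMUSG00000074361, chromosome 7, 15968510 to 15978079, minus strand, GRCm39), lies 2588 bases downstream of C5ar1 on the same strand. It had 36, 55 and 38 counts on MSA-DA, against 68, 65 and 73 counts on MSA-ZW. Scaled to library size these were 2.52, 3.01 and 2.41 CPM on MSA-DA and 4.11, 3.98 and 4.004 CPM on MSA-ZW. The groups did not overlap, and the fall was the largest in fold among the called members. Of all tested genes, 1.29% had a more negative log2 difference than the -0.60 of C5ar2 (standard error 0.19, edgeR adjusted p = 0.0295). The coefficient of variation was 12.1% on MSA-DA and 1.73% on MSA-ZW, while counts of this size carry counting errors of 15.5% on MSA-DA and 12.1% on MSA-ZW. Leaving out any library but MSA-DA replicate 2 ended the call, with edgeR adjusted p between 0.0547 and 0.116. Limma without a variance trend called it at pseudocounts of 1 and 0.1 (adjusted p of 0.0301 and 0.0353). Limma on log2(FPKM + 1) with a variance trend did not call it (adjusted p = 0.0849). C5ar2 entered the limma fits only through its MSA-ZW libraries, as it stayed below their FPKM minimum of 1 on MSA-DA. Its limma calls therefore add no separate support. In all, limma fits included, C5ar2 was called in 9 of the 15 alternative fits that gave it an adjusted p, and DESeq2 gave none.

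The proportion of the C5a receptor transcripts to each other was compared within each library. The ratio of C5ar1 to C5ar2, in FPKM (counts scaled to exonic length and library size), was 28.7, 25.4 and 30.04 on MSA-DA, against 19.7, 20.2 and 21.8 on MSA-ZW. All 3 MSA-DA ratios lay above the MSA-ZW ratios, and the log2 ratio was 0.45 higher on MSA-DA. An exact two-sided permutation test gave p = 0.1, the smallest that 3 libraries against 3 allow, and 0.4 adjusted over the 4 ratios computed, so this design cannot call the difference. The ratio of C3ar1 to C5ar1 averaged 1.41 ± 0.0269 on MSA-DA, against 1.43 ± 0.0528 on MSA-ZW (mean ± SD, n = 3 per gel, exact permutation p = 0.6), with overlapping groups.

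Properdin, encoded by Cfp (ENSMUSG00000001128, chromosome X, 20791693 to 20797794, minus strand, GRCm39), had the highest FPKM of the 9 genes and the smallest p. It stood at 177, 172 and 179 CPM on MSA-DA, against 214, 208 and 223 CPM on MSA-ZW. The gap between the gels was again wider than the range within either. The log2 difference was -0.29 (standard error 0.03, edgeR adjusted p = 3.88e-08), which placed Cfp at rank 69 of 12467 tested genes by p. Cfp was called in all 16 alternative fits.

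C3, the central component (ENSMUSG00000024164, chromosome 17, 57510970 to 57535136, minus strand, GRCm39), had 59, 80 and 59 counts on MSA-DA, against 74, 81 and 83 counts on MSA-ZW. In CPM these were 4.12, 4.38 and 3.74 on MSA-DA and 4.47, 4.96 and 4.55 on MSA-ZW. The libraries of the gels did not overlap, as was so for 28.4% of all tested genes, but the difference did not pass the test (log2 difference -0.19, 95% interval -0.51 to 0.14, edgeR adjusted p = 0.52). The interval includes the sizes measured for C3ar1, C5ar1 and Cfp, so a difference of that size in C3 was not detectable at this depth.

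Cfb, the gene of factor B (ENSMUSG00000090231, chromosome 17, 35075350 to 35081494, minus strand, GRCm39), had 10, 11 and 4 counts on MSA-DA, against 16, 10 and 9 counts on MSA-ZW. These groups overlapped, and the difference did not pass (log2 difference -0.40, 95% interval -1.33 to 0.52, edgeR adjusted p = 0.643). The gene Gm20547, annotated from 35075388 to 35101018 on the same strand, covers nearly all of Cfb and is listed with 0 counts in all libraries. The sources used here do not give how reads shared by overlapping genes were counted, and the Cfb level is uncertain for that reason. The ratio of Cfb to C3 averaged 0.228 ± 0.0961 on MSA-DA, against 0.274 ± 0.102 on MSA-ZW (mean ± SD of FPKM ratios, n = 3 per gel, exact permutation p = 0.6), and without MSA-DA replicate 3 the sign of its difference turned. The ratio of Cfp to C3 averaged 128 ± 12.4 on MSA-DA, against 137 ± 10.7 on MSA-ZW (mean ± SD of FPKM ratios, n = 3 per gel, exact permutation p = 0.4).

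The C1q chain genes, which many tissue macrophages express strongly, were at or near 0 in all libraries. C1qa (ENSMUSG00000036887, chromosome 4, 136623228 to 136626114), C1qc (ENSMUSG00000036896, 136617115 to 136620376) and C1qb (ENSMUSG00000036905, 136607440 to 136613498) lie next to one another on the minus strand, 2851 bases between C1qa and C1qc and 3616 bases between C1qc and C1qb. C1qa and C1qc had 0 counts in all 6 libraries, and C1qb had 0 counts in all MSA-DA libraries and 1 count in MSA-ZW replicate 2. A count of 0 allows up to 3 counts, which is 0.164 to 0.210 CPM in the MSA-DA libraries and 0.165 to 0.184 CPM in the MSA-ZW libraries, for counting error only. No comparison between the gels was detectable for these genes at this depth, and the planned ratios among the chains could not be formed.

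On the length-scaled FPKM scale, which allows genes to be compared with one another, Cfp led on both gels. It averaged 101 ± 2.09 FPKM on MSA-DA, against 124 ± 4.39 FPKM on MSA-ZW (mean ± SD, n = 3 per gel). C3ar1 came next at 29.0 ± 0.590 FPKM on MSA-DA, against 33.5 ± 0.361 FPKM on MSA-ZW, then C5ar1 at 20.5 ± 0.716 FPKM on MSA-DA, against 23.4 ± 1.13 FPKM on MSA-ZW. In this order each of these genes was separated from the next by a gap between their libraries on both gels. The next pair was ordered differently by gel: C5ar2 spanned 0.67 to 0.84 FPKM and C3 0.73 to 0.85 FPKM on MSA-DA, where they overlapped, and C5ar2 spanned 1.12 to 1.16 FPKM and C3 0.87 to 0.96 FPKM on MSA-ZW, where C5ar2 lay above. Cfb followed at 0.09 to 0.25 FPKM on MSA-DA and 0.18 to 0.34 FPKM on MSA-ZW, with the C1q chain genes last.

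**Figure D2:**
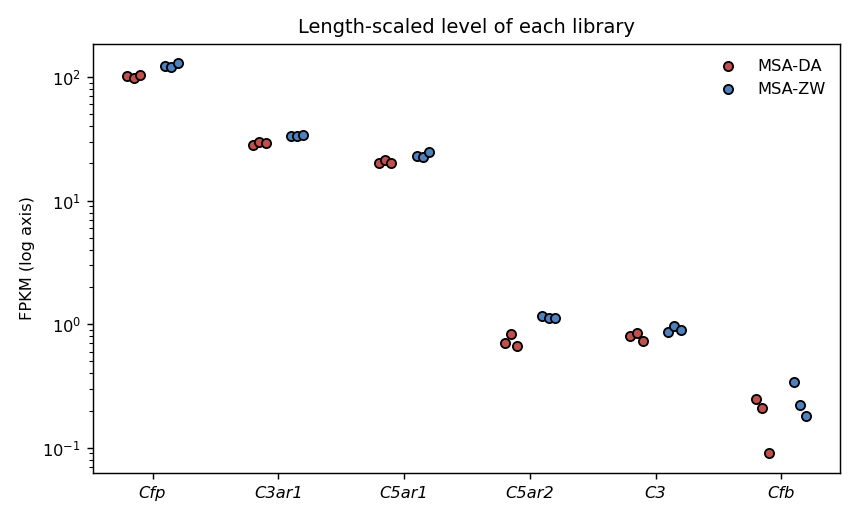
FPKM of 6 complement genes in each library on a log axis, MSA-DA libraries left of MSA-ZW libraries for each gene. Cfp, C3ar1 and C5ar1 lie between 20.1 and 129 FPKM, the other 3 genes at 1.16 FPKM or below, and the C1q chain genes are not drawn because nearly all their values are 0.

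The wider pathway was read from a list of 49 other complement genes, of which 15 had enough reads to be tested. edgeR called 1 of them higher, Itgam, and 1 lower, Lrp1, and 13 did not pass, a share called near the 13.4% of all tested genes. Their median log2 difference was 0.03, beside 0.00 over all tested genes. The other 34 were untested, with at most 12 counts in any library, and 17 of these had 0 counts throughout.

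Itgam encodes the alpha chain of complement receptor 3, which binds C3 fragments on opsonised particles. Its level was 140, 143 and 131 CPM on MSA-DA, against 118, 120 and 121 CPM on MSA-ZW. The groups did not overlap, and Itgam rose on MSA-DA while the anaphylatoxin receptor genes fell (log2 difference 0.21, standard error 0.04, edgeR adjusted p = 9.23e-05). Limma on log2(FPKM + 1) without a variance trend did not call it (adjusted p = 0.0603), nor did it with a pseudocount of 0.1 (0.0721). Itgb2, the beta chain that pairs with it, stood at 825 ± 5.56 CPM on MSA-DA, against 822 ± 9.34 CPM on MSA-ZW (mean ± SD, n = 3 per gel), and its difference had a 95% interval of -0.04 to 0.05 in log2 (edgeR adjusted p = 0.909).

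Lrp1, an endocytic receptor that takes part in the uptake of C1q-bound cells, had 778, 743 and 721 CPM on MSA-DA, against 900, 863 and 777 CPM on MSA-ZW. Here MSA-ZW replicate 3 lay just below MSA-DA replicate 1, so the groups overlapped (log2 difference -0.18, standard error 0.03, edgeR adjusted p = 0.000231). After a correction for GC content and exonic gene length the difference was -0.09 and still passed (edgeR adjusted p = 0.016). Neither DESeq2 (adjusted p = 0.0692) nor limma on FPKM (adjusted p of 0.0856 to 0.168 over its 3 settings) called it.

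Among the membrane and fluid-phase regulators, 0 of 4 tested genes passed edgeR's test, too few to be told from the 13.4% called over all tested genes. Cr1l, the rodent membrane regulator of C3 convertases, had 129 ± 5.01 CPM on MSA-DA, against 125 ± 1.42 CPM on MSA-ZW, and Clu, an inhibitor of the terminal complex, had 58.2 ± 2.32 CPM on MSA-DA, against 61.5 ± 0.398 CPM on MSA-ZW (mean ± SD, n = 3 per gel). The genes of 2 C1q-binding proteins, C1qbp and the chaperone Calr, did not pass. C1qbp had 250 ± 6.76 CPM on MSA-DA, against 238 ± 1.51 CPM on MSA-ZW, with an edgeR adjusted p of 0.0896. Calr had 2496 ± 14.6 CPM on MSA-DA, against 2449 ± 49.1 CPM on MSA-ZW, with an edgeR adjusted p of 0.383. Of 16 activators of the classical and lectin routes 13 were untested, as were 44224 of the 56691 genes of the table, and the ficolin gene Fcna, the C1 protease gene C1ra and the lectin pathway protease gene Masp2 were tested without passing. Of 8 genes of the alternative and terminal pathway only C8g was tested, at 0.681 ± 0.236 CPM on MSA-DA, against 0.634 ± 0.343 CPM on MSA-ZW (mean ± SD, n = 3 per gel), and it did not pass. C5 itself (Hc) and factor D (Cfd) had at most 1 count in any library.

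**Figure D3:**
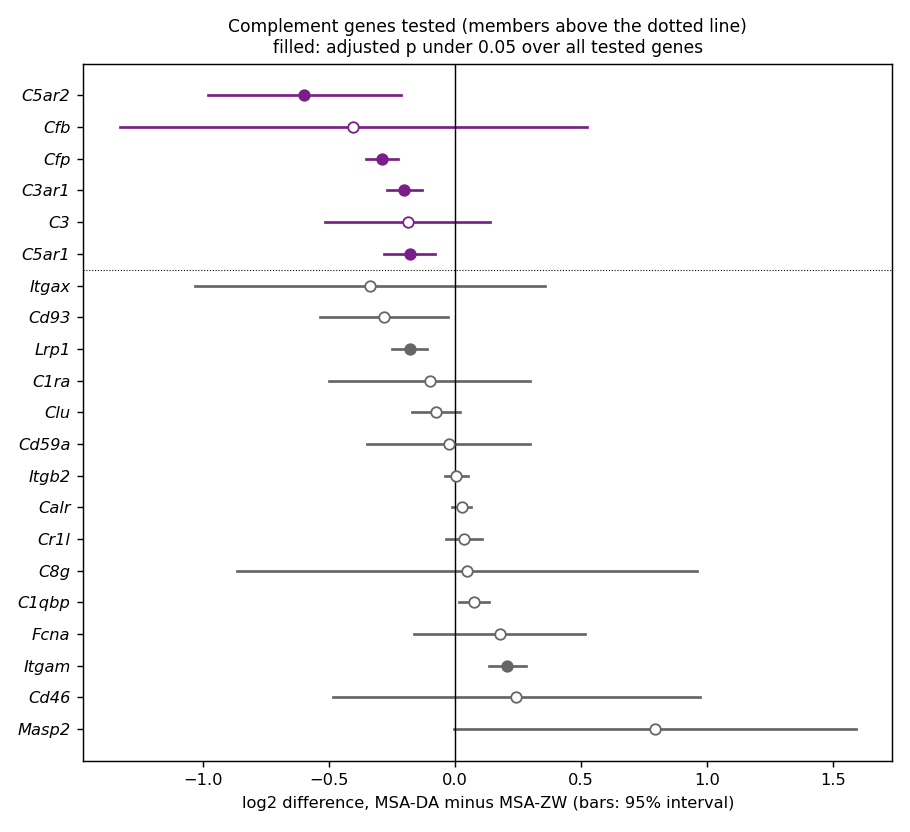
Log2 difference, MSA-DA minus MSA-ZW, with its 95% interval for the 6 tested members (above the dotted line) and the 15 tested genes of the wider pathway. Filled points passed an adjusted p of 0.05: C5ar2, Cfp, C3ar1, C5ar1 and Lrp1 on the lower side and Itgam on the higher side.

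Across processing choices all measured differences of Cfp lay between -0.32 and -0.25 on the log2 scale, and those of C3ar1 between -0.27 and -0.19. C5ar1 lay between -0.22 and -0.14, and C5ar2 between -0.71 and -0.30, the end nearest 0 coming from the log2(FPKM + 1) scale, which understates changes of low genes. All were lower on MSA-DA in every fit that gave them an adjusted p.

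**Figure D4:**
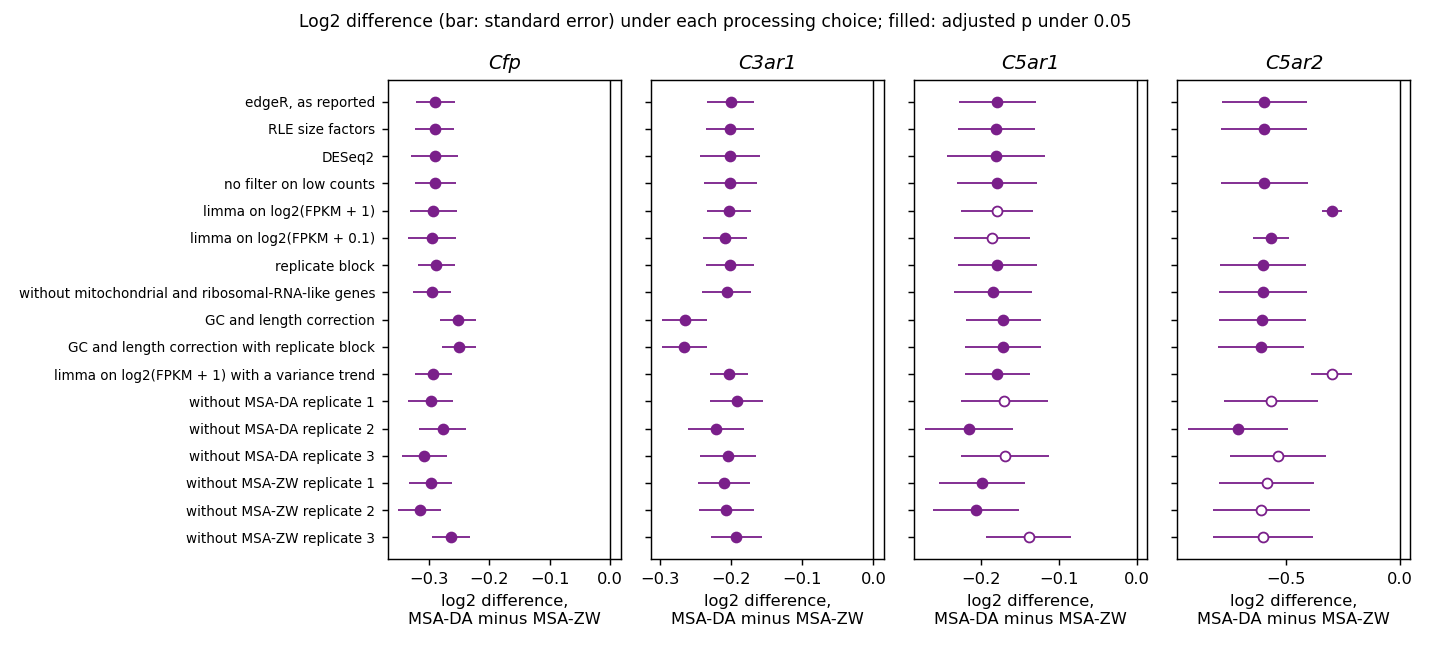
Log2 difference, MSA-DA minus MSA-ZW, of the 4 called members under each processing choice, with standard errors; filled points have an adjusted p below 0.05. Every point lies below 0, and Cfp and C3ar1 are filled throughout while C5ar1 and C5ar2 are not. DESeq2 gave no adjusted p for C5ar2, so that point is missing.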

How the data were processed

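The submitters' processing notes name HISAT2 2.2.1, cutadapt 1.9.1 and bcl2fastq 2.20.0.422 together with the build GRCm39. No counting tool, strand setting or annotation release is stated in the sources used here. Raw counts and FPKM values per gene and library were deposited by the authors, per the file headers, with exonic lengths and coordinates. Members were matched by symbol. The members and lists were chosen with earlier results of these data known.

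Counts were tested with edgeR 4.0.16 in R 4.3.3 (TMM scaling, the filterByExpr filter, then glmQLFit and glmQLFTest with the gel as sole term), with Benjamini-Hochberg adjustment over 12467 genes. CPM uses TMM-scaled library sizes. Ratios of FPKM were compared by exact permutation over libraries. Alternatives used DESeq2 1.42.0, and limma 3.58.1 on log2(FPKM + 1) and log2(FPKM + 0.1) keeping genes that reached an FPKM of 1 in 3 or more libraries. A further alternative was a loess correction for GC content and the deposited exonic length. GC content came from GENCODE M21 transcripts, matched by gene ID for 98.9% of tested genes. All 9 members were named. Of the other complement genes, those that passed and tested ones of at least 10 CPM were named by rule, and the rest after their values were seen. The fits were run on simulated counts with a common spread for all genes, unlike the real data. No recovery rate for differences as small as those measured here is given. Beside the marker lists given, 1 further list is not reported here. Limits given for a count of 0 cover counting error only.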

Additional observations from a re-analysis of the deposited data

How the results depend on the processing

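Cfp and C3ar1 kept their direction and call in all 16 alternatives. C3 and Cfb were not called in any of the 13 and 12 that gave them an adjusted p. The number of members called was 2 to 4 when a library was left out, and 3 or 4 otherwise. Limma without a variance trend did not call C5ar1, with log2 differences of -0.18 at a pseudocount of 1 and -0.19 at 0.1 (adjusted p of 0.0886 and 0.101), and leaving out a library gave -0.22 to -0.14. For C5ar2 these were -0.71 to -0.54, and limma with a variance trend, an alternative chosen after seeing the data, gave -0.30 (adjusted p = 0.0849). The log2 ratio of Cfb to C3 was -0.59 to 0.08 when a library was left out (0.0814 without MSA-DA replicate 3, exact permutation p = 0.9), against -0.31 with all. Of the 49 other complement genes, DESeq2 called 1, limma called 0 at either pseudocount and limma with a variance trend 1, against 2 with edgeR; these counts are of genes called, and the cause of the changes was not tested. Over all genes edgeR called 1673, DESeq2 1077, limma 403 and 319 at pseudocounts of 1 and 0.1, limma with a variance trend 906, and edgeR 1001 to 1654 when a library was left out.

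No pairing by replicate number was seen: deviations from the group means correlated by 0.01, 0.01 and -0.01 between same-numbered libraries, and not every library was closest to its own number. These values cover all tested genes, those with low counts included, and cannot show that no pairing existed. With the replicate block 1594 genes and 4 members were called. Low counts limit C5ar2, C3, Cfb and the C1q chain genes most.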

Other observations

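By likeness of pattern over the 6 libraries, the genes of at least 10 CPM closest to each called member in log2 CPM were as follows. The closest to Cfp were Irf7, Oasl1 and Arhgef2, with Pearson's r of 0.998 to 0.999. The closest to C3ar1 were Inf2, Ube2l6 and Cd72, at 0.993 to 0.998. For C5ar1 they were Fdps, Mri1 and Fes, at 0.992 to 0.995, and for C5ar2 they were Polrmt, Gcnt1 and Ccnd1, at 0.990 to 0.996. These values describe 6 points that form a group for each gel, and many genes had a high r. At a looser cut, r exceeded 0.95 for 219 of 8622 genes with Cfp, 196 with C3ar1 and 71 with C5ar1, and for 121 of 8623 with C5ar2.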
